A study of Microtus ochrogaster with 40 samples.

Results

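Endocannabinoids are lipid messengers that neurons make on demand and that act back on the terminals contacting them. The genes described here are 1 receptor and 6 enzymes of that system: Cnr1, Dagla, Daglb, Napepld, Mgll, Faah and Abhd6. They were taken by name, for their known function, and all 7 were found among the 19130 genes of the count tables. They were measured by single-nucleus RNA sequencing of the nucleus accumbens, a ventral striatal region, in 40 prairie voles (Microtus ochrogaster). Every vole had lived for 16 days with an unfamiliar partner, either an opposite-sex mate or a same-sex peer, and no unpaired animals were among the samples. The groups were 11 females with a mate, 8 females with a peer, 11 males with a mate and 10 males with a peer, each animal giving 1 library. Strain and age are not given in the sources used here. The labels do not name which animals lived together, so 2 partners may both be among the 40 and p-values treat them as independent.

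Cnr1 encodes the CB1 receptor, which sits mostly on axon terminals and lowers transmitter release when it binds an endocannabinoid. Dagla and Daglb encode diacylglycerol lipases that make 2-arachidonoylglycerol, and Napepld encodes a phospholipase of the route to anandamide. Mgll and Abhd6 encode lipases that hydrolyse 2-arachidonoylglycerol, and Faah encodes the amidase that hydrolyses anandamide. In the striatum this system is known for synaptic depression at inputs onto medium spiny neurons, the projection neurons that carry either the D1 or the D2 dopamine receptor.

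After filtering, 178387 nuclei were kept, with 1767 to 7666 nuclei and 2921022 to 13137056 UMIs (counted RNA molecules) per library. Libraries shared between 0.1096% and 2.2158% of the smaller library's cell barcodes over the 780 pairs. The library male mate 2 stood apart: 6375 of its 12519 barcodes were under 500 UMIs, its median depth was 654 UMIs, and 46.3% of its kept nuclei were glutamate neuron-like. The share of glutamate neuron-like nuclei ran from 0.531% in male peer 5 upward, so a level over all nuclei also reflects how a tissue piece was composed. Whether these nuclei lay within the nucleus accumbens or beside it was not tested. Nuclei were grouped without the 7 genes, and 12 classes were named from marker genes. Medium spiny neuron-like nuclei were of D1, D2 and eccentric kind. Other neurons were of glutamate, somatostatin, cholinergic and immature kind (the last also led by cell-cycle genes). The remaining classes were astrocyte-like, oligodendrocyte-like, oligodendrocyte precursor-like, microglia-like and endothelial-like nuclei. Of the 8286 somatostatin interneuron-like nuclei, 6966 were in a cluster led by Kcnc2, Grik1 and Elfn1. Both Pvalb and Sst were among the leading genes of that cluster, so the class is mixed. A cluster of 3534 nuclei was led by Vip, Crabp1, Kit, Trh and Htr3a. Its best marker list was that of parvalbumin interneurons, with 6 of 7 markers raised. Another list had more genes among the leading genes, so the cluster stayed unnamed. Levels are given as CPM, a gene's counts scaled to a fixed total of UMIs of the class within an animal, for animals with at least 20 nuclei of the class. Since CPM is not scaled for transcript length, levels are compared between classes for 1 gene and never between genes.

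The 7 genes were not highest in the same cells. Among named classes, Cnr1, Mgll and Abhd6 were highest in astrocyte-like nuclei, Dagla in cholinergic interneuron-like nuclei, Daglb in microglia-like nuclei, Faah in glutamate neuron-like nuclei and Napepld, at very low counts, in oligodendrocyte-like nuclei. Taken as a whole, the Vip-led cluster had far more Cnr1 than any named class, but its parts differed, as described below. Oligodendrocyte-like nuclei were lowest for Cnr1, Dagla, Daglb and Mgll, and microglia-like nuclei for Faah, Napepld and Abhd6. Of the 77 neighbouring pairs in the 7 orders of named classes, 38 differed in a two-sided sign-flip permutation test over animals (adjusted p under 0.05) and 39 did not.

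**Figure D1:**
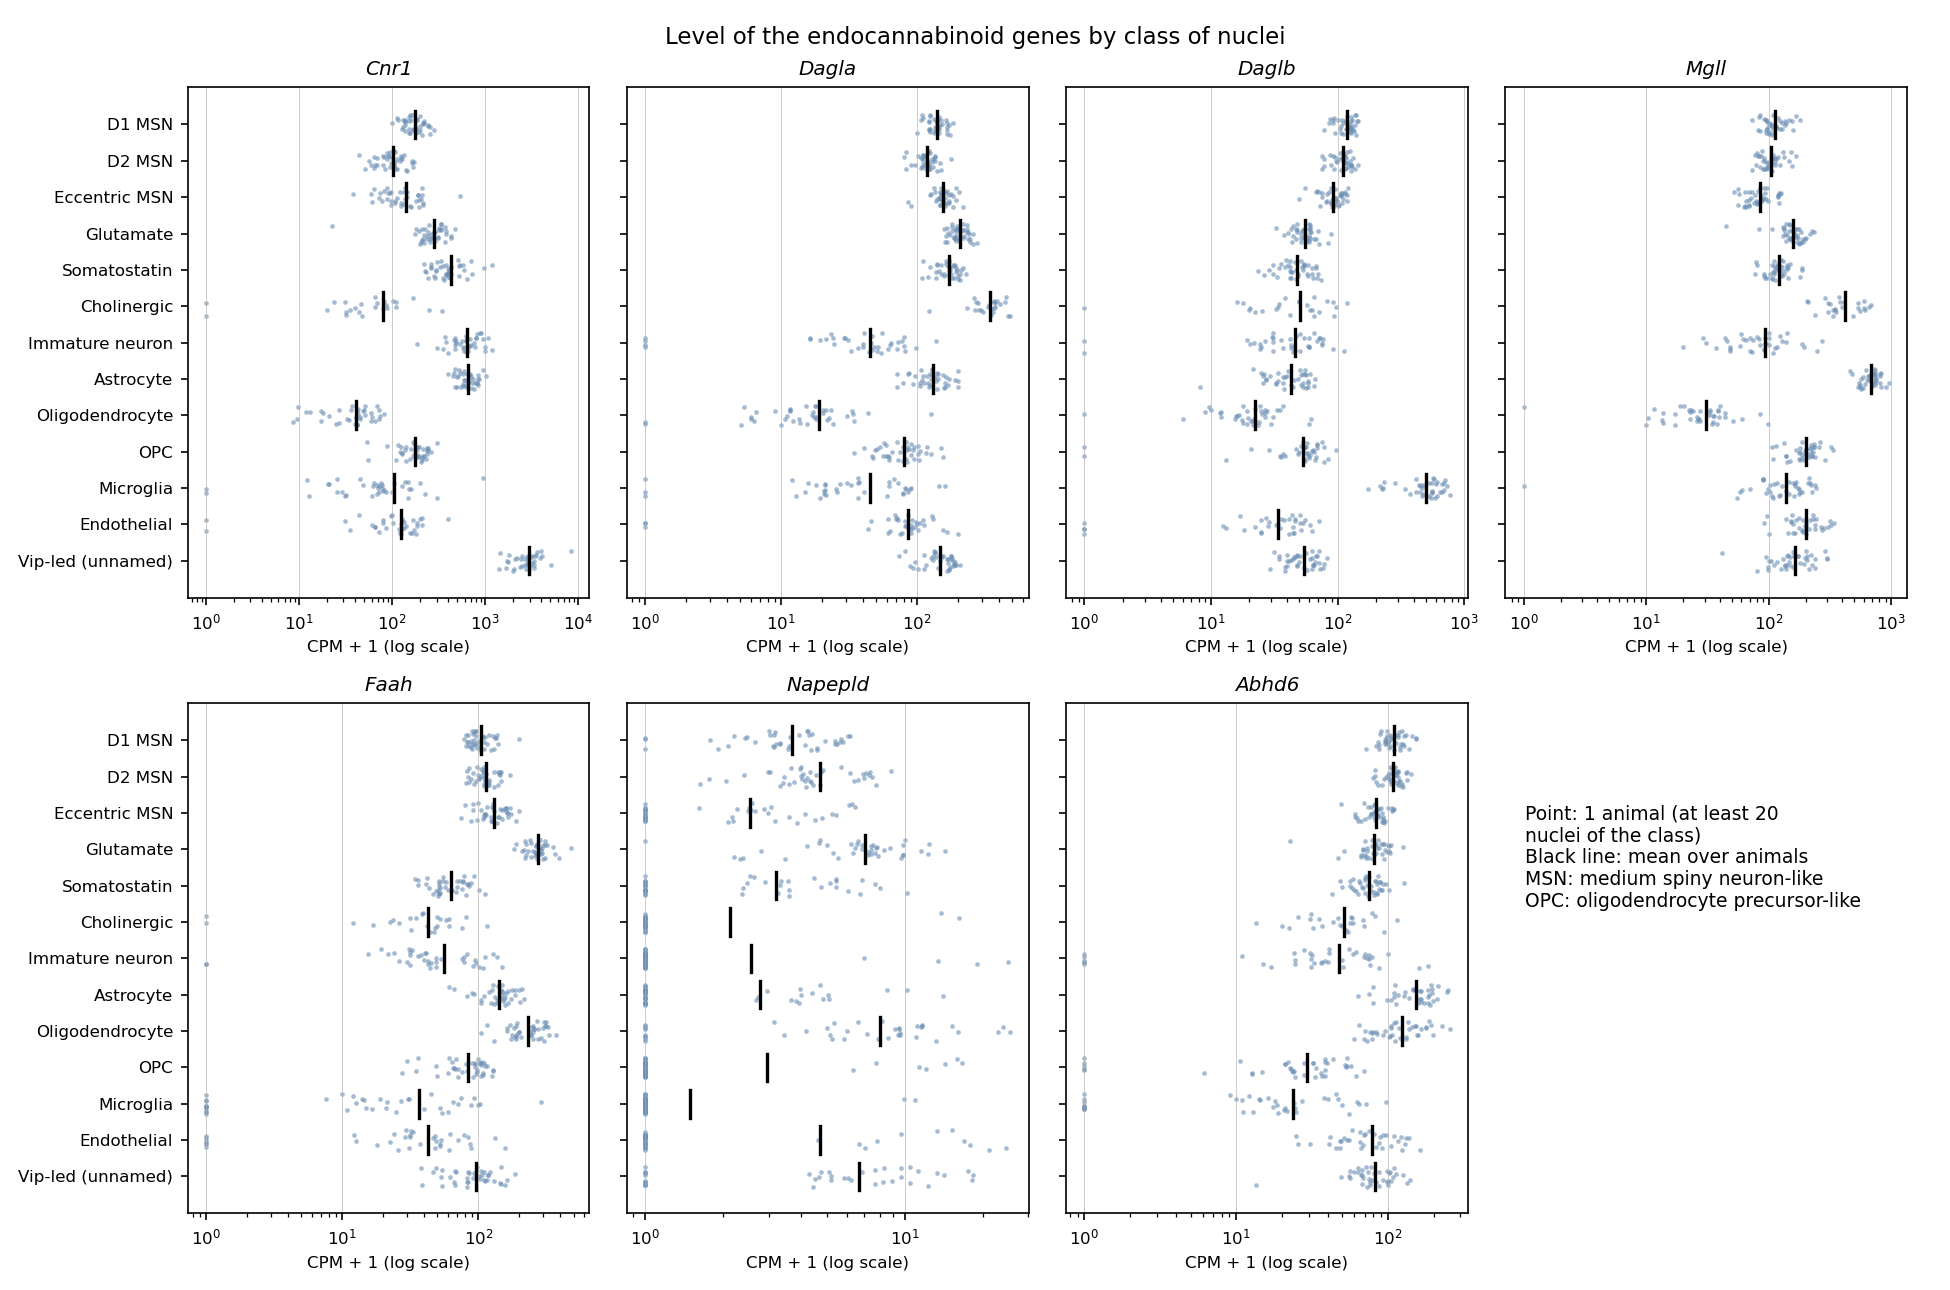
Level of each of the 7 genes as CPM + 1 on a log axis by class of nuclei, each point 1 animal and each black line the mean over animals with at least 20 nuclei of the class. Cnr1 reaches a mean of 2939 CPM in the Vip-led cluster and 655 CPM in astrocyte-like nuclei, Daglb 502 CPM in microglia-like nuclei and Mgll 685 CPM in astrocyte-like nuclei.

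Cnr1, the receptor, averaged 2939 CPM ± 1193 (SD, n = 39) in the Vip-led cluster, where the lowest animal had 1399, the median animal 2851 and the highest 8407 CPM. That highest value came from male mate 6 (1776 UMIs in 65 nuclei), the next animal had 5057 CPM, and without male mate 6 the mean was 2795 CPM ± 795 (n = 38). Even the lowest animal of this cluster lay above the highest astrocyte-like value. The cluster held 2.61% of all UMIs and 26.2% of the Cnr1 UMIs.

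In astrocyte-like nuclei Cnr1 was at 655 CPM ± 146 (n = 39), from 401 through a median of 633 to 1020 CPM. Immature neuron-like nuclei had 643 CPM ± 221 (n = 39), from 184 through 623 to 1182 CPM. These top named classes did not differ beyond the spread between animals (log2 difference 0.08, permutation test, adjusted p = 0.488, higher in astrocyte-like nuclei in 22 of 38 animals). Somatostatin interneuron-like nuclei followed at 428 CPM ± 198 (n = 40) and glutamate neuron-like nuclei at 278 CPM ± 84.5 (n = 40), and each step down from immature neuron-like nuclei to oligodendrocyte precursor-like nuclei passed the test. The lowest glutamate neuron-like value, 21.7 CPM, came from male peer 5, which had 23 such nuclei.

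Oligodendrocyte precursor-like nuclei (177 CPM ± 54.4, n = 40) and D1 medium spiny neuron-like nuclei (175 CPM ± 43.9, n = 40) did not differ (adjusted p = 0.851). Eccentric medium spiny neuron-like nuclei had 138 CPM ± 81.8 (n = 40) and D2 medium spiny neuron-like nuclei 101 CPM ± 32.8 (n = 40). Microglia-like nuclei averaged 103 CPM ± 151 (n = 39), but 1 library, male mate 8, had 937 CPM (105 UMIs in 175 nuclei), the next had 303 CPM, and the mean without it was 81.2 CPM ± 65.2 (n = 38). On the log2 scale microglia-like nuclei lay below D2 nuclei, not above them (log2 difference -0.61, adjusted p = 0.0294), the only passing pair of the 38 that ran against the order of the means. Cholinergic interneuron-like nuclei had 77.8 CPM ± 76.8 (n = 25). Oligodendrocyte-like nuclei were lowest, at 39.7 CPM ± 19.7 (n = 40), and the mean of astrocyte-like nuclei was 16.5 times as high.

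Depth per nucleus differed between classes, from a median of 609 UMIs in microglia-like to 2212 UMIs in cholinergic interneuron-like nuclei, so the share of nuclei with a Cnr1 UMI was also taken after thinning every nucleus to 500 UMIs. It was 54.9% ± 7.64 in the Vip-led cluster (84.9% unthinned), 26.5% ± 4.96 in astrocyte-like nuclei (38.6% unthinned) and 23.6% ± 6.56 in immature neuron-like nuclei (32.3% unthinned). It was 7.99% ± 1.90 in D1 nuclei (29.6% unthinned) and 4.41% ± 1.48 in D2 nuclei (15.9% unthinned). The lowest share was 1.74% ± 0.960 (2.72% unthinned) in oligodendrocyte-like nuclei. Their median depth was near that of astrocyte-like nuclei (665 against 777 UMIs). The part that free RNA has in these shares was not tested.

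Dagla, the diacylglycerol lipase of dendrites and spines, averaged 341 CPM ± 80.3 (n = 25) in cholinergic interneuron-like nuclei, from 122 through a median of 352 to 485 CPM. Glutamate neuron-like nuclei had 205 CPM ± 30.2 (n = 40), from 157 through 195 to 274 CPM. Cholinergic nuclei were higher in 24 of 25 animals by 0.61 on the log2 scale (permutation test, adjusted p = 7e-05). Somatostatin interneuron-like nuclei were at 170 CPM ± 28.9, eccentric nuclei at 155 CPM ± 25.5, D1 nuclei at 139 CPM ± 19.2 and D2 nuclei at 118 CPM ± 19.0 (n = 40 each). Astrocyte-like nuclei, at 130 CPM ± 34.5 (n = 39), fell between D1 nuclei (adjusted p = 0.0598) and D2 nuclei (adjusted p = 0.0415). Immature neuron-like nuclei were low among neurons, at 44.2 CPM ± 29.0 (n = 39), next to microglia-like nuclei at 44.3 CPM ± 37.0 (n = 39, adjusted p = 0.922). Oligodendrocyte-like nuclei had 18.1 CPM ± 20.0 (n = 40). Of the 11 neighbouring pairs for Dagla, 8 differed.

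Daglb, the lipase's other form, had a different pattern with 1 class above all others. Microglia-like nuclei averaged 502 CPM ± 156 (n = 39), from 175 through a median of 531 to 767 CPM. D1 nuclei came next at 117 CPM ± 17.1 (n = 40), from 77.6 through 119 to 144 CPM, so every animal's microglia-like value lay above every D1 value. The step was 1.99 on the log2 scale and was seen in 39 of 39 animals (permutation test, adjusted p = 7e-05). D2 nuclei had 109 CPM ± 17.2, eccentric nuclei 91.9 CPM ± 17.0 and glutamate neuron-like nuclei 54.7 CPM ± 11.2 (n = 40 each), and each of these steps passed. Below them only 1 of the remaining 7 steps passed. With 500 UMIs per nucleus, 23.2% of microglia-like nuclei had a Daglb UMI (29.6% unthinned) against 5.69% of D1 nuclei (23.6% unthinned) and 1.10% of oligodendrocyte-like nuclei.

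Napepld gave 1207 UMIs in all 40 libraries together, 11 to 46 per animal, too few to order most classes. Its means ran from 7.04 CPM ± 6.29 in oligodendrocyte-like nuclei (n = 40, 68 UMIs) and 6.05 CPM ± 2.96 in glutamate neuron-like nuclei (n = 40, 491 UMIs) down to 0.487 CPM in microglia-like nuclei, which held 2 UMIs. Only 2 of 11 neighbouring pairs differed: glutamate neuron-like above endothelial-like nuclei (adjusted p = 0.00812) and D2 above D1 nuclei (adjusted p = 0.0287). The second was higher in 26 of 40 animals and did not pass at a Leiden resolution of 2 (adjusted p = 0.0702) or in edgeR with the animal as a block and no filter on low counts (log2 difference 0.35, adjusted p = 0.0818).

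Mgll, the main lipase that ends 2-arachidonoylglycerol signalling, averaged 685 CPM ± 110 (n = 39) in astrocyte-like nuclei, from 460 through a median of 692 to 954 CPM. Cholinergic interneuron-like nuclei had 416 CPM ± 143 (n = 25), from 203 through 372 to 679 CPM. The ranges of these classes overlapped, and astrocyte-like nuclei were higher in 21 of 24 animals (log2 difference 0.78, permutation test, adjusted p = 9.06e-05). Endothelial-like nuclei (202 CPM ± 62.1, n = 36) and oligodendrocyte precursor-like nuclei (200 CPM ± 51.5, n = 40) did not differ (adjusted p = 0.913). Glutamate neuron-like nuclei had 158 CPM ± 35.3, D1 nuclei 112 CPM ± 24.7, D2 nuclei 104 CPM ± 22.2 and oligodendrocyte-like nuclei 30.0 CPM ± 18.8 (n = 40 each). Astrocyte-like nuclei held 4.66% of all UMIs and 21.0% of the Mgll UMIs. At 500 UMIs per nucleus, 27.5% of them had an Mgll UMI, against 1.3% of oligodendrocyte-like nuclei.

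Faah, the anandamide hydrolase, was highest in glutamate neuron-like nuclei at 274 CPM ± 55.1 (n = 40), from 182 through a median of 269 to 479 CPM. Oligodendrocyte-like nuclei, lowest for 4 of the other genes, were the next highest here at 232 CPM ± 63.9 (n = 40), from 103 through 241 to 372 CPM. The ranges overlapped widely, and glutamate neuron-like nuclei were higher in 29 of 40 animals (log2 difference 0.27, permutation test, adjusted p = 9.06e-05). Astrocyte-like nuclei had 142 CPM ± 37.0 (n = 39), D2 nuclei 112 CPM ± 21.1 and D1 nuclei 103 CPM ± 23.2 (n = 40 each). Cholinergic interneuron-like nuclei, highest for Dagla, were near the bottom for Faah at 41.5 CPM ± 25.3 (n = 25). Of 11 neighbouring pairs 8 differed. Glutamate neuron-like nuclei held 24.7% of all UMIs and 45.9% of the Faah UMIs.

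Abhd6, the second lipase of 2-arachidonoylglycerol, varied least between classes, with a 6.69-fold span between class means. It averaged 152 CPM ± 45.3 in astrocyte-like nuclei (n = 39), 123 CPM ± 46.9 in oligodendrocyte-like nuclei, 108 CPM ± 18.9 in D1 nuclei and 108 CPM ± 14.7 in D2 nuclei (n = 40 each). It was lowest in microglia-like nuclei at 22.7 CPM ± 22.9 (n = 39). Only 3 of its 11 neighbouring pairs differed: astrocyte-like above oligodendrocyte-like nuclei, D2 above eccentric medium spiny neuron-like nuclei, and somatostatin above cholinergic interneuron-like nuclei.

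The Vip-led cluster was itself uneven for Cnr1. Splitting it gave 8 subclusters, described here without a test because the cluster was singled out after its level was seen. The subcluster led by Yjefn3, Vip and Cck (484 nuclei) averaged 9504 CPM ± 2517 over 26 animals with at least 10 such nuclei, from 5887 to 18012 CPM. Every one of those animals exceeded the highest animal of the largest subcluster, led by Thsd4 (1176 nuclei), which had 2654 CPM ± 495 and reached 3894 CPM (n = 38). The subcluster led by Pvalb had 1814 CPM ± 390 (n = 22), that led by Reln, Npy and Lamp5 had 1138 CPM ± 267 (n = 8), and that led by Trh had 643 CPM ± 154 (n = 20). Those led by Lama3 and by Nos1 had 791 CPM ± 291 (n = 7) and 662 CPM ± 511 (n = 5). Astrocyte-like nuclei, for comparison, had 655 CPM. The Vip and Cck subcluster held 12441 of the cluster's 24976 Cnr1 UMIs. Vip over pooled nuclei was 13035 CPM there and at most 263 CPM in any other subcluster. A subcluster of 217 nuclei led by the oligodendrocyte genes Mal and Cldn11 also had 2016 CPM ± 759 (n = 8), and its part in the cluster's level was not tested. The hydrolases had another order, since Mgll was at 501 CPM ± 133 and Faah at 294 CPM ± 110 in the Reln, Npy and Lamp5 subcluster, against 216 CPM ± 100 and 98.9 CPM ± 59.0 in the Vip and Cck subcluster.

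**Figure D2:**
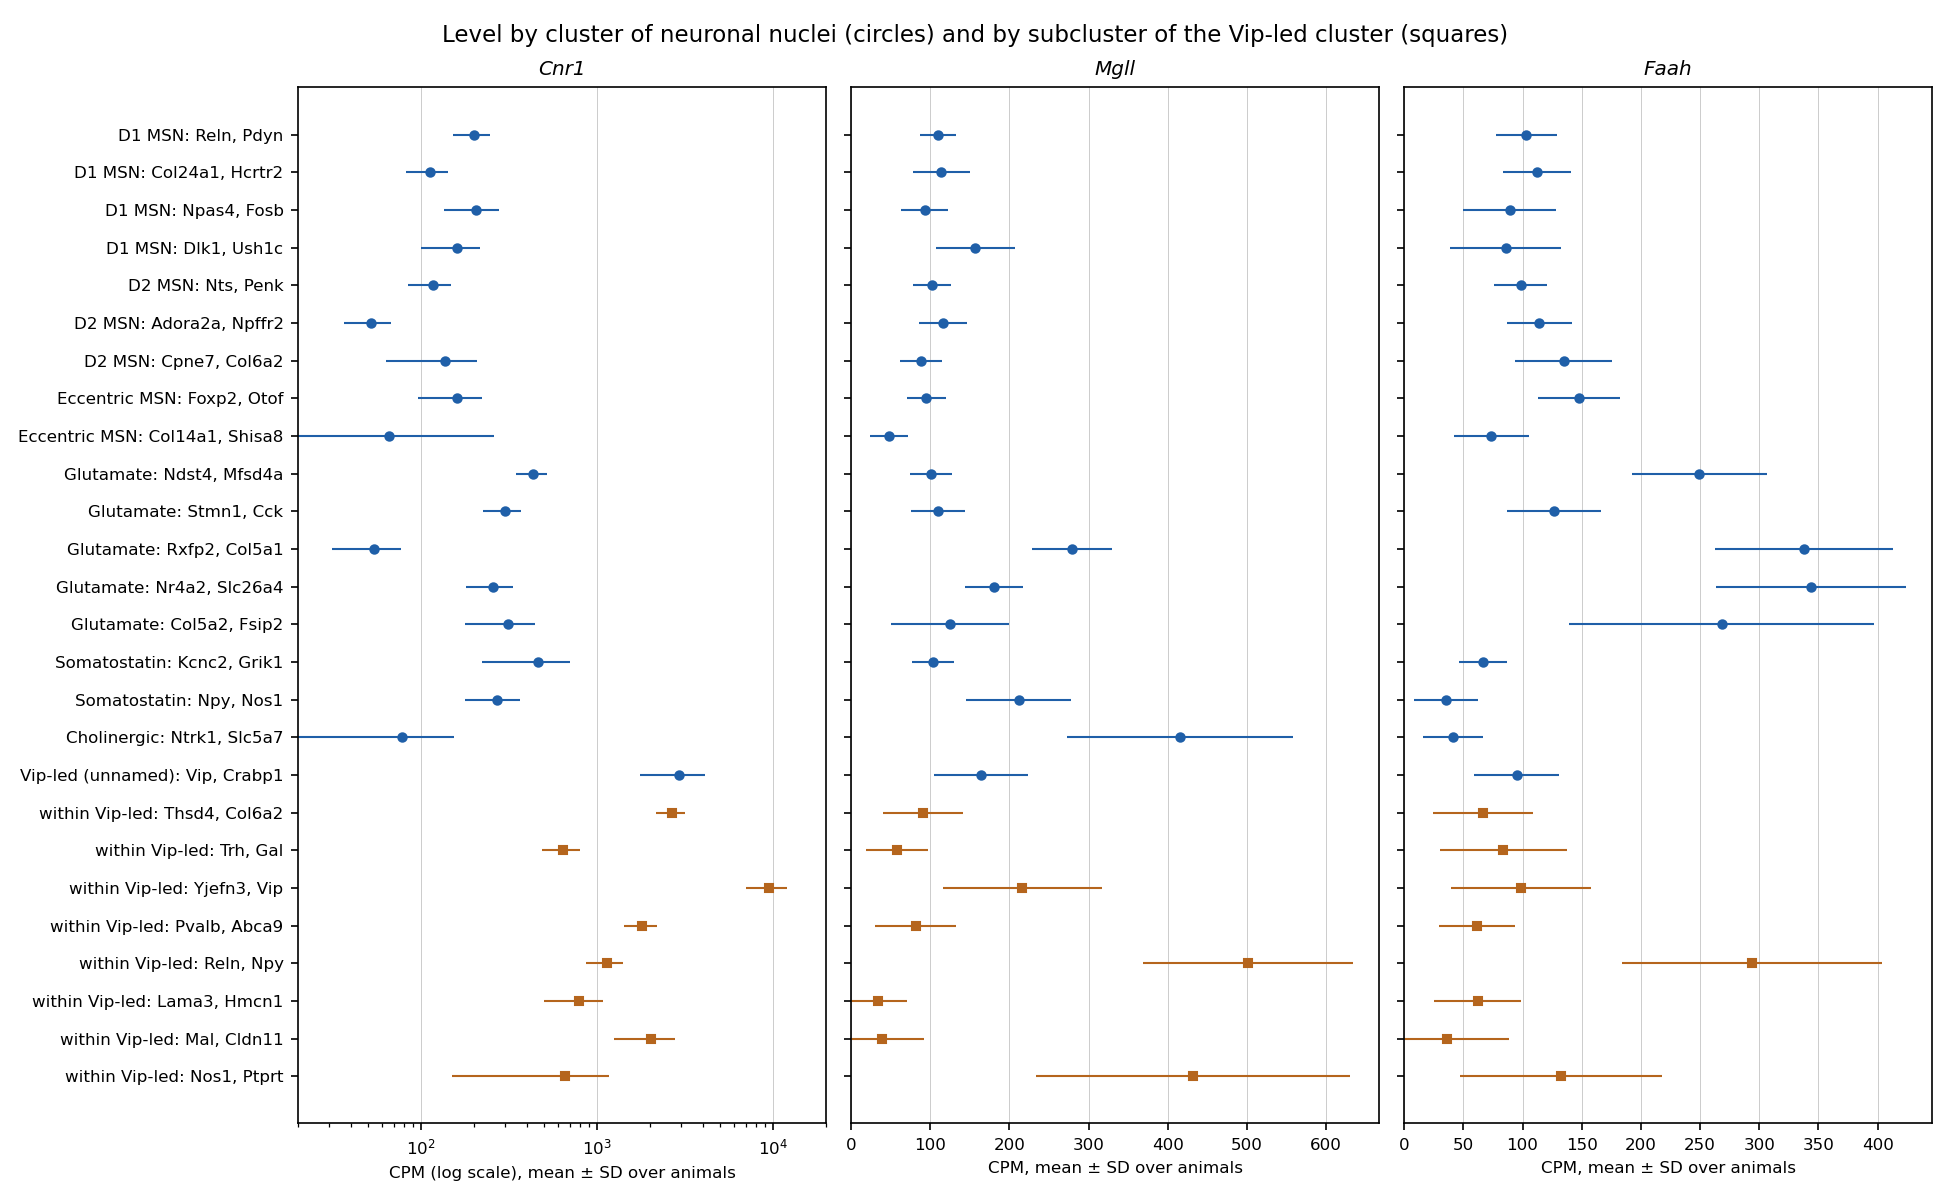
Levels of Cnr1 (log axis), Mgll and Faah in CPM, mean ± SD over animals, by cluster and named by leading genes. Circles are clusters of neuronal nuclei, without the immature neuron-like cluster, which is not drawn. Squares are the subclusters of the Vip-led cluster. Bars are cut where they pass the axis limit, and the Vip and Cck subcluster has the highest Cnr1, 9504 CPM.

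Clusters within a named class differed too, and these pairs are a description because they were chosen after their levels were seen. In glutamate neuron-like nuclei, the cluster led by Ndst4, Mfsd4a and Slc30a3 had 435 CPM ± 88.2 of Cnr1 and the cluster led by Rxfp2, Col5a1 and Nxph3 had 53.9 CPM ± 22.8, with the first higher in 39 of 39 animals. Mgll ran the other way, at 101 CPM ± 26.1 against 279 CPM ± 50.6, with the Rxfp2-led cluster higher in 39 of 39. Faah (249 CPM ± 57.1 against 338 CPM ± 75.0, 36 of 39) and Dagla (194 CPM ± 31.5 against 253 CPM ± 47.6, 38 of 39) were also higher in the Rxfp2-led cluster. Abhd6 followed Cnr1, at 108 CPM ± 21.3 against 50.4 CPM ± 14.2, and was higher in the Ndst4-led cluster in 39 of 39 animals.

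For medium spiny neurons, 1 pair of clusters is given for each of D1 and D2 nuclei. Other clusters of these classes, such as a D2 cluster of 5533 nuclei led by Cpne7, were not in the pairs. In D1 nuclei the cluster led by Reln and Pdyn had 199 CPM ± 47.7 of Cnr1 and the cluster led by Col24a1 and Hcrtr2 had 112 CPM ± 29.9, and the first was higher in 39 of 40 animals. In D2 nuclei the cluster led by Nts and Penk had 117 CPM ± 32.0 and the cluster led by Adora2a and Npffr2, with Col24a1 among its leading genes, had 51.9 CPM ± 15.7, with the first higher in 40 of 40. Daglb was higher in the other cluster of both pairs, in 32 of 40 animals for D1 (133 CPM ± 28.6 against 114 CPM ± 19.3) and 37 of 40 for D2 (128 CPM ± 24.0 against 103 CPM ± 19.3). Among somatostatin interneuron-like nuclei, Mgll was at 212 CPM ± 66.0 in the cluster led by Npy and Nos1 and 103 CPM ± 27.5 in the cluster led by Kcnc2 (28 of 31 animals), while Cnr1 was at 272 CPM ± 94.2 and 499 CPM ± 259 (higher in the Kcnc2-led cluster in 26 of 31).

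The comparison of D2 with D1 medium spiny neuron-like nuclei was tested within animals, since both classes came from each of the 40. Cnr1 in D1 nuclei ran from 99.2 through a median of 168 to 282 CPM, and in D2 nuclei from 43.3 through 98.2 to 169 CPM. The ranges overlapped between animals, yet within every one of the 40 animals D1 nuclei had more. The ratio of D1 to D2 was 1.73, a log2 difference of D2 minus D1 of -0.79 (SE 0.03, 95% confidence interval -0.85 to -0.73, edgeR quasi-likelihood test with the animal as a block, adjusted p = 7.3e-39). The difference was present in each group: the mean log2 difference per animal was -0.76 ± 0.29 in females with a mate, -0.80 ± 0.29 in females with a peer, -0.71 ± 0.26 in males with a mate and -0.95 ± 0.36 in males with a peer. The smallest difference, -0.17, was that of male mate 2. Sharing of this difference among groups was not itself tested.

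**Figure D3:**
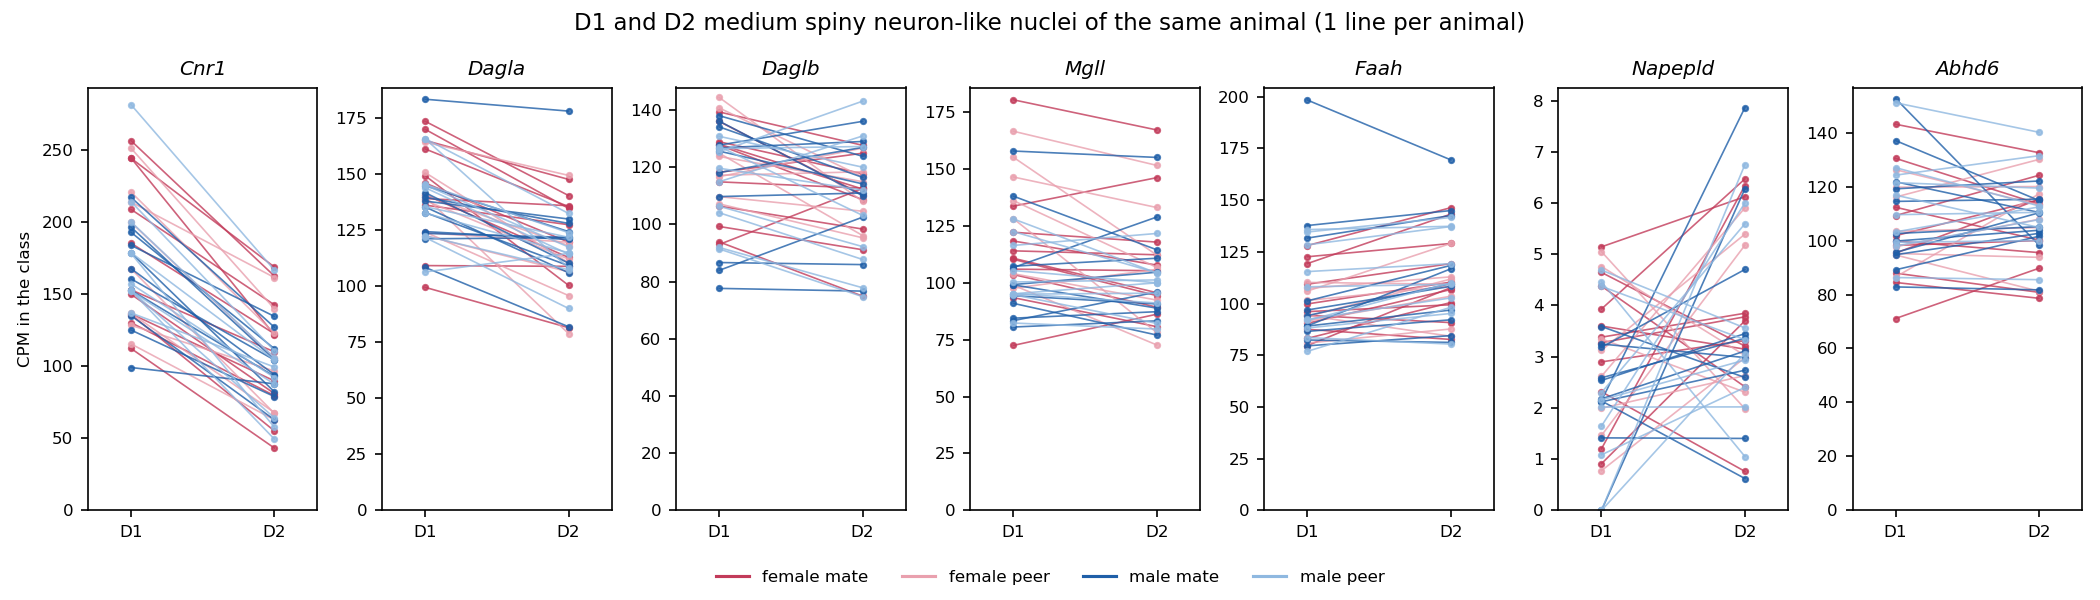
Levels in CPM of the 7 genes in D1 and D2 medium spiny neuron-like nuclei, each line 1 of the 40 animals, coloured by group. Every Cnr1 line falls from D1 to D2, while the lines of Abhd6 run both ways.

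In this comparison 29.8% of 10266 genes passed (15.0% higher and 14.7% lower in D2), and 5 of the 6 genes tested here passed, 1 higher and 4 lower in D2. Their median log2 difference was -0.09, against -0.00 over all genes tested. Besides Cnr1, Dagla fell by 0.23 from D1 to D2 (SE 0.03, adjusted p = 1.46e-12, lower in 38 of 40 animals). Faah was the 1 gene higher in D2, by 0.14 (SE 0.02, adjusted p = 5.96e-07, 33 of 40 animals). Daglb fell by 0.09 (adjusted p = 0.00474, 28 of 40) and Mgll by 0.09 (adjusted p = 0.00819, 27 of 40). Without the animal as a block only Cnr1 and Dagla passed, and Daglb (adjusted p = 0.367), Mgll (adjusted p = 0.537) and Faah (adjusted p = 0.0785) did not. For Abhd6 the difference was 0.02 with an interval of -0.03 to 0.07 (adjusted p = 0.554). Napepld was too low for the filter on counts.

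Other genes of the pathway came from a list of 38, of which 33 were in the files and 16 could be tested between D2 and D1 nuclei. Of these, 3 were higher in D2, 3 lower and 10 did not pass. The cyclooxygenase gene Ptgs2, whose enzyme oxidises endocannabinoids, rose by 0.43 (adjusted p = 5.94e-09). Fabp5, which encodes a fatty acid carrier, fell by 0.18 (adjusted p = 0.000644).

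Levels of those pathway genes by class are given as a description. Receptors and phospholipases that yield diacylglycerol were highest in different classes. Among those led by neurons were Grm5 at 434 CPM ± 87.1 in D1 nuclei (n = 40) and 420 CPM in D2 nuclei, Chrm1 at 313 CPM ± 47.5 and Plcb1 at 279 CPM ± 67.3 in eccentric medium spiny neuron-like nuclei, and Plcb4 at 231 CPM ± 81.3 in cholinergic interneuron-like nuclei. The G protein gene Gna11 (80.2 CPM ± 27.4) and the phospholipase gene Plcb3 (56.3 CPM ± 32.1) were highest in endothelial-like nuclei. Cnrip1, which encodes a protein that binds the tail of CB1, was highest in glutamate neuron-like nuclei (226 CPM ± 32.1) and lowest in astrocyte-like nuclei (46.0 CPM), where Cnr1 was high. Microglia-like nuclei, which led for Daglb, also led for the hydrolases Abhd12 (382 CPM ± 99.8) and Naaa (346 CPM ± 192) and for the lipoxygenase Alox12 (673 CPM ± 246). Oligodendrocyte-like nuclei, high in Faah, led for Gde1 (457 CPM ± 119) and Plaat3 (308 CPM ± 70.2), enzymes of other routes to N-acylethanolamines. Astrocyte-like nuclei led for Ppara (49.4 CPM ± 13.3), a nuclear receptor for fatty acid amides. Cnr2, the CB2 receptor gene, gave 16 UMIs over all named classes.

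The genes most like each of Cnr1, Dagla and Mgll over the 12 named classes were taken by Pearson's r of log2(CPM + 5) among 11683 genes with at least 20 CPM in some class. The classes share libraries and differ in depth, so r is a description. For Cnr1 the named genes were Lancl3 (r = 0.926), Mtres1 (0.903) and Tox3 (0.880), all highest in astrocyte-like or immature neuron-like nuclei, with 2 genes without a symbol after them. For Dagla they were Rgs7 (0.968), Gmpr (0.963), Apbb3 (0.954), Fads3 (0.946) and Snph (0.945). For Mgll they were Mfhas1 (0.871), Tmem150a (0.870), Inpp1 (0.861), Thap3 (0.843) and Vasn (0.837). Among the 7 genes themselves the highest r were 0.765 between Faah and Napepld and 0.712 between Faah and Abhd6. Napepld averaged at most 7.04 CPM in a named class, under the 20 CPM asked of the other genes, so its r is limited by low counts.

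Pairing type was compared next, first over all kept nuclei of an animal, where fewer nuclei of a class and less RNA per nucleus cannot be told apart. Cnr1 was at 272 CPM ± 55.1 in females with a mate (192, median 267, highest 388), 315 CPM ± 50.7 in females with a peer (196, 326, 356), 299 CPM ± 84.6 in males with a mate (179, 284, 509) and 305 CPM ± 64.1 in males with a peer (193, 292, 418). The 4 ranges overlapped, but the low end of females with a peer was the single animal female peer 4, and the other 7 lay from 310 to 356 CPM. No comparison was run without female peer 4. The mate minus peer difference was -0.12 on the log2 scale (SE 0.10, interval -0.32 to 0.08, edgeR, adjusted p = 0.767). It was -0.20 within females (interval -0.49 to 0.09) and -0.04 within males (interval -0.31 to 0.23), and the interaction was -0.16 (interval -0.56 to 0.24). Without male mate 6, the library with the highest value, the difference was -0.17 (adjusted p = 0.651), and with blocks of 10 consecutive label numbers as a covariate it was -0.03 (adjusted p = 0.968).

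**Figure D4:**
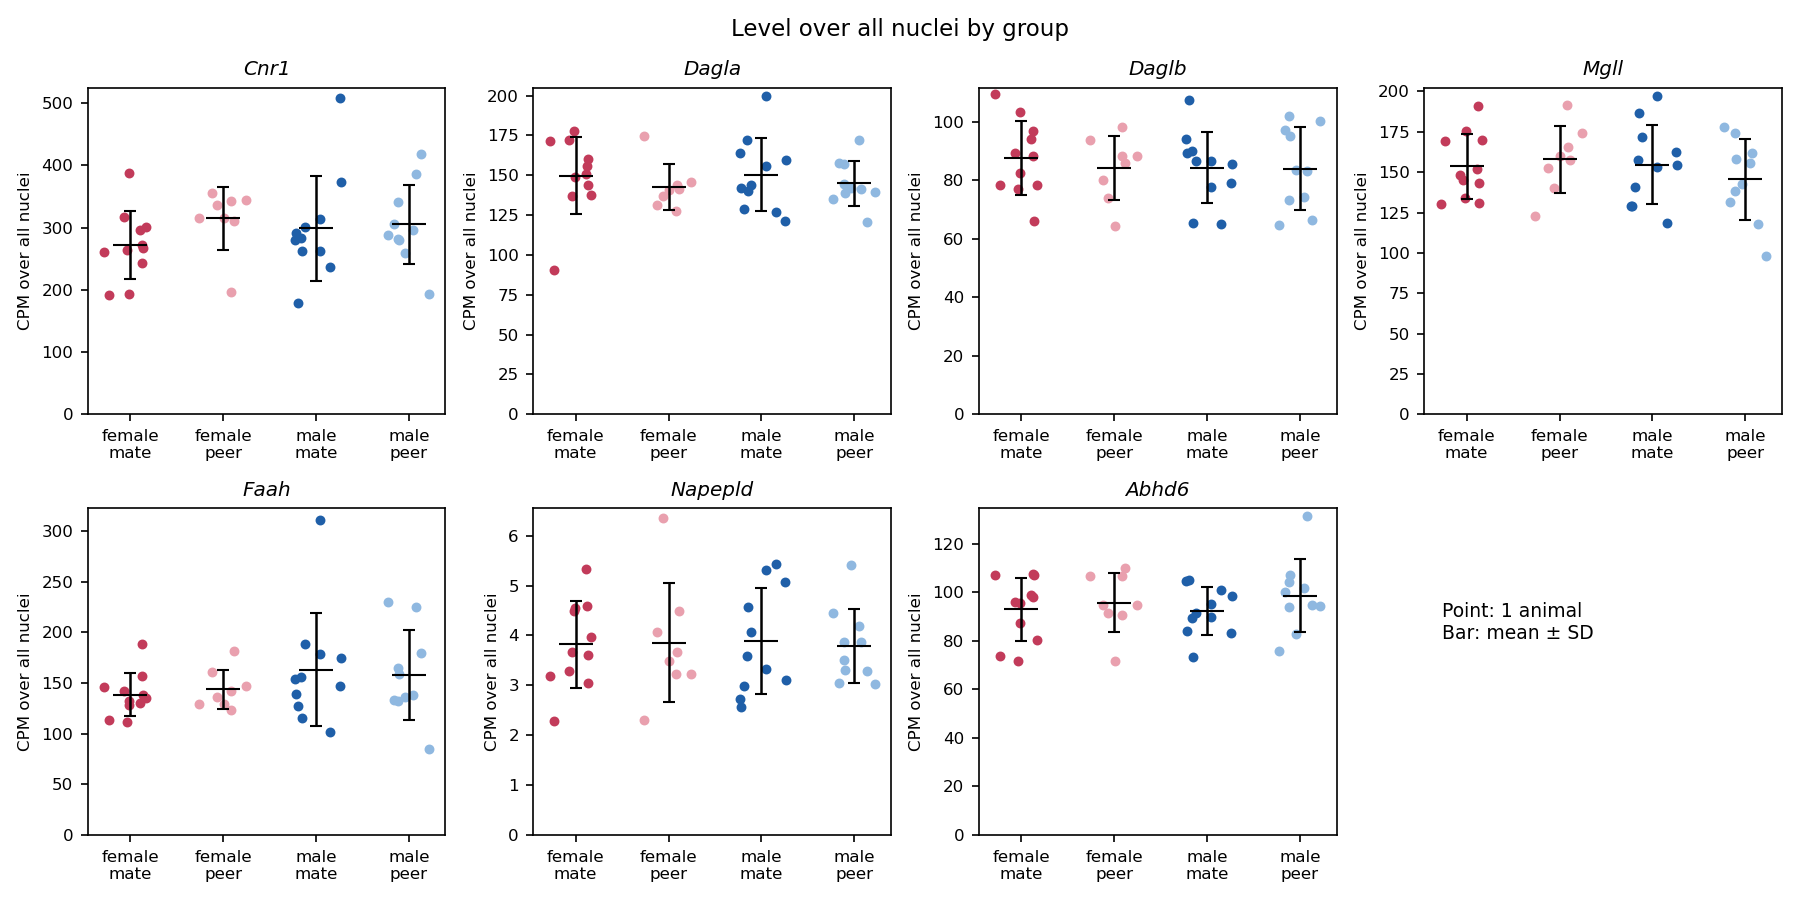
Levels of the 7 genes in CPM over all kept nuclei, each point 1 animal, with the mean and SD of the 4 groups. The groups overlap for every gene, and the highest Faah value, 311 CPM, is that of male mate 2.

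For the enzymes the differences between mate and peer animals were as small. Dagla was at 150 CPM ± 22.9 in the 22 animals with a mate and 144 CPM ± 13.9 in the 18 with a peer, a log2 difference of 0.06 (interval -0.08 to 0.20). Daglb was at 85.9 CPM ± 12.3 and 84.0 CPM ± 12.4 (0.03, interval -0.11 to 0.18). Mgll was at 154 CPM ± 22.0 and 151 CPM ± 23.5 (0.02, interval -0.10 to 0.15). Abhd6 was at 92.6 CPM ± 11.3 and 97.3 CPM ± 13.6 (-0.07, interval -0.20 to 0.07). Faah was at 151 CPM ± 43.1 and 152 CPM ± 35.3 (-0.00, interval -0.21 to 0.21), with 84.6 CPM in male peer 5, the library with the fewest glutamate neuron-like nuclei, and 311 CPM in male mate 2, the library with most. Napepld was at 3.85 CPM ± 0.949 and 3.82 CPM ± 0.938 (0.03, interval -0.22 to 0.27). Its difference was 0.20 without glutamate neuron-like nuclei (adjusted p = 0.629) and 0.08 without the library female peer 1 (adjusted p = 0.903), neither passing.

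None of the 7 passed in edgeR for pairing, for pairing within either sex or for the interaction, where 0% of 13714 genes passed, nor for sex, where 0.0219% passed. DESeq2 also called none of the 7. At an unadjusted p under 0.05 in edgeR, 0 of the 7 differed in any of these contrasts, against 6.90% of all genes for pairing, 7.50% within females, 1.52% within males, 2.06% for the interaction and 8.30% for sex. The lowest unadjusted p among sex differences was that of Faah, at 141 CPM ± 20.1 in 19 females and 161 CPM ± 49.5 in 21 males (log2 female minus male -0.18, interval -0.39 to 0.02, p = 0.0814, edgeR). It was -0.12 without male mate 2, which had 311 CPM, and -0.09 without glutamate neuron-like nuclei. Of the 28 other pathway genes tested by pairing, 0 passed in edgeR and 2 had an unadjusted p under 0.05, Homer1 (0.23) and Fabp5 (-0.23, adjusted p = 0.706 for both).

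Within the 11 classes that could be compared between groups, 50 gene and class pairs were tested per contrast. For pairing, 0 of the 50 passed in edgeR and in DESeq2, where 0% of 77209 gene and class pairs passed in edgeR. At an unadjusted p under 0.05, 1 of 50 (2%) differed, against 4.97% of all pairs. That pair was Cnr1 in astrocyte-like nuclei, at 655 CPM ± 157 in females with a mate (401, median 633, highest 853), 734 CPM ± 177 in females with a peer (455, 699, 1020), 571 CPM ± 99.9 in males with a mate (468, 557, 807) and 674 CPM ± 122 in males with a peer (500, 693, 840). The mean was lower with a mate in both sexes, but the ranges overlapped (log2 difference -0.23, SE 0.10, edgeR, unadjusted p = 0.0283, adjusted p = 0.853).

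In D1 nuclei the Cnr1 difference by pairing was -0.07 (interval -0.29 to 0.15) and in D2 nuclei 0.03 (interval -0.26 to 0.33). Within females 0.00130% and within males 0% of all pairs passed, and 0 of the 50 in each. At an unadjusted p under 0.05, 1 of 50 differed in each sex, where 4.86% of all pairs did in females and 2.74% in males. That pair was Cnr1 in endothelial-like nuclei for females (161 CPM ± 99.3 with a mate, 92.3 CPM ± 63.2 with a peer) and Cnr1 in microglia-like nuclei for males. The latter rested on male mate 8: the log2 difference was 1.33 with that library (edgeR, unadjusted p = 0.0309) and 0.18 without it (p = 0.733). For the interaction 0 of 50 passed (0% of all pairs), and for sex 0 of 50 (0.0220% of all pairs). At an unadjusted p under 0.05, 1 of 50 differed for each, where 2.73% of all pairs did for the interaction and 5.25% for sex. For the interaction it was Cnr1 in endothelial-like nuclei, which in males was at 88.0 CPM ± 48.9 with a mate and 146 CPM ± 41.7 with a peer (interaction 1.45, interval 0.42 to 2.48, edgeR, unadjusted p = 0.0061). It turned to -1.22 when doublets were kept. The pair with the lowest p by sex was Mgll in D1 nuclei, at 121 CPM ± 27.0 in females and 104 CPM ± 19.5 in males (log2 difference 0.24, interval 0.06 to 0.42, edgeR, unadjusted p = 0.00834, adjusted p = 0.848). Of 128 tests of other pathway genes by pairing in classes, 0 passed in edgeR and 2 had an unadjusted p under 0.05.

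**Figure D5:**
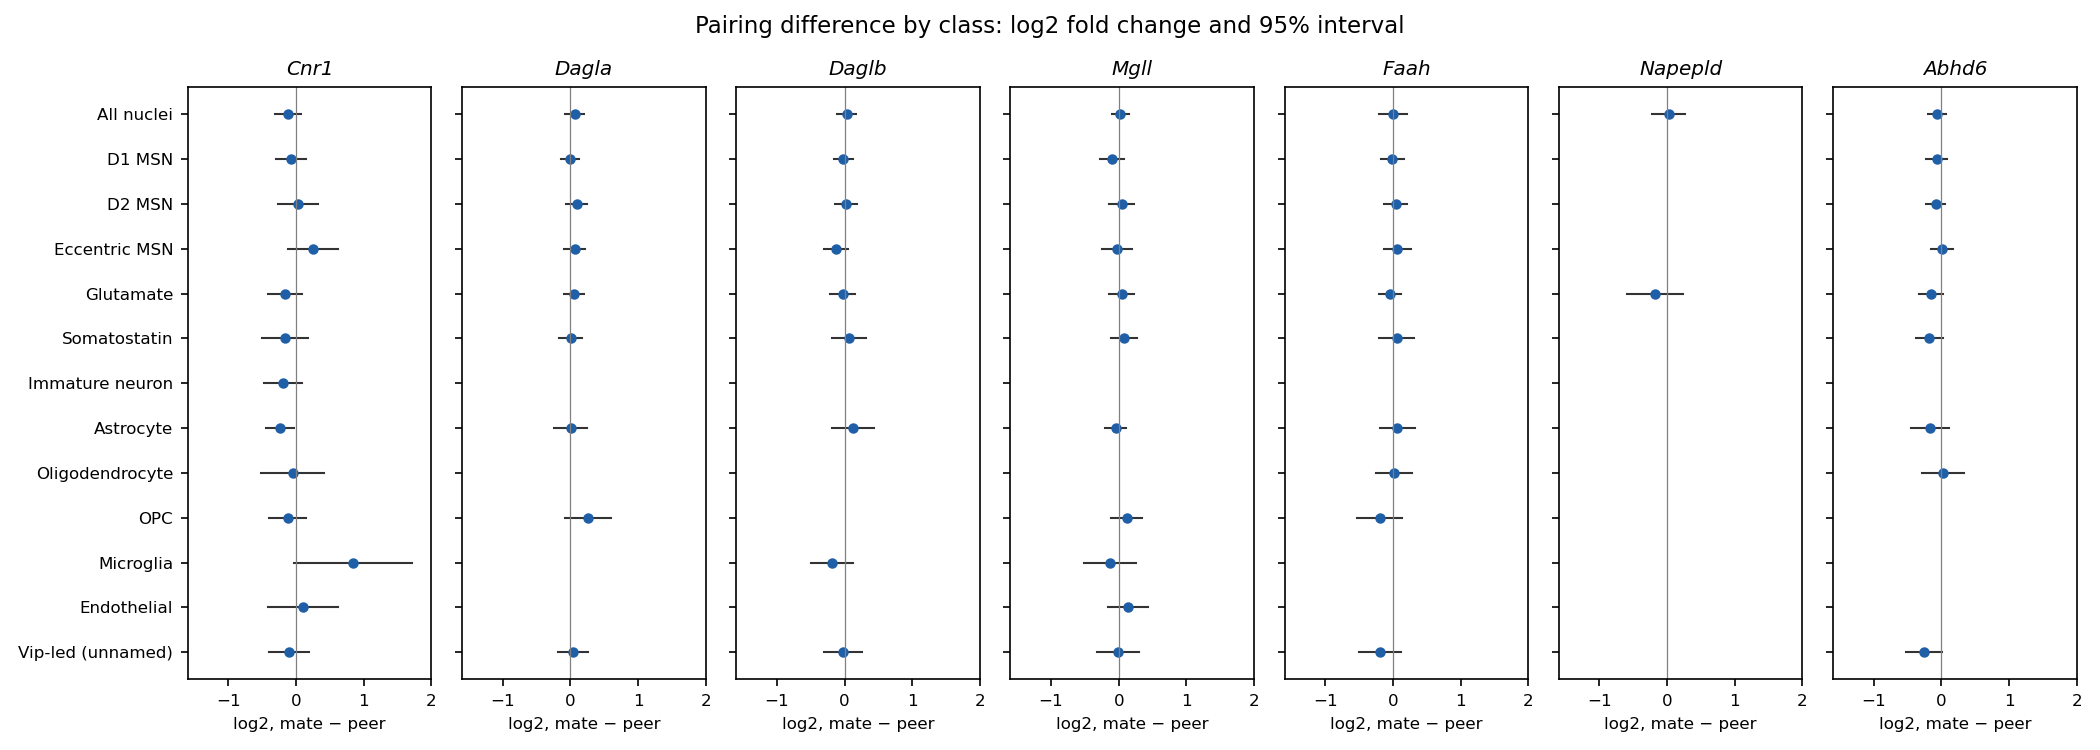
Log2 difference of mate minus peer animals with its 95% interval for each gene over all nuclei, in each class and in the Vip-led cluster, from edgeR. A gene too low for the test in a class has no point. Most intervals span 0, that of Cnr1 in astrocyte-like nuclei runs from -0.44 to -0.02, and the widest for Cnr1 is in microglia-like nuclei.

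In the Vip-led cluster, which was added to the comparisons after its level was seen, Cnr1 was at 2601 CPM ± 761 in females with a mate, 3288 CPM ± 903 in females with a peer, 3150.4 CPM ± 1871 in males with a mate and 2834 CPM ± 794 in males with a peer. The log2 difference by pairing was -0.10 (interval -0.40 to 0.19) and -0.23 without male mate 6, and 0 of 6 genes passed in edgeR (0% of 6815 genes), with 0 of 6 at an unadjusted p under 0.05 (4.48% of genes). For sex 0 of 6 passed, where 0.0293% of genes did, and 1 of 6 had an unadjusted p under 0.05 (4.21% of genes). It was Faah, at 77.0 CPM ± 25.8 in females and 110 CPM ± 37.2 in males (log2 difference -0.44, edgeR, unadjusted p = 0.00596).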

How the data were processed

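The deposited files hold UMI counts per gene and barcode for 40 libraries, 1 per animal, made by the authors with Cell Ranger 3.1.0, per the submitters' processing notes. The genome build, annotation and counting settings are not given in the sources used here.

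Barcodes under 500 UMIs or with over 5% of mitochondrial UMIs were left out, as were 7608 predicted doublets. Counts were clustered over 2000 variable genes without the 7 genes, the pathway list and mitochondrial genes (30 principal components, 15 neighbours, Leiden resolution 1, giving 30 clusters), after scaling that was added when a first clustering merged interneuron types. Clusters were named from 16 marker lists by a rule set after the clusters, but not yet any group comparison, had been seen. The 10800 nuclei of other unnamed clusters entered the sums over all nuclei and no test between classes; 1 of these clusters is described apart.

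Counts were summed per animal and class and tested with edgeR 4.0.16 (quasi-likelihood, TMM factors, R 4.3.3), with 4 group means or, for D2 against D1, the animal as a block, and Benjamini-Hochberg adjustment over all genes tested. Cholinergic interneuron-like nuclei were in too few animals to compare groups. Neighbouring classes were compared by sign-flip permutation of log2(CPM + 5) differences (100000 resamples, smallest p 1e-05), adjusted over 77 pairs. Scripts were tested on simulated data. The alternatives were DESeq2 1.42.0, RLE factors, no filter, left-out libraries or nuclei, blocks of label numbers, kept doublets, another pseudocount, at least 50 nuclei per class and Leiden resolution 2.

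All 7 genes were entered in every test, and edgeR tested those with enough counts. Descriptions of clusters name only some of the 7, picked after their levels were seen. Of the pathway list up to 3 genes with the lowest p are named per test (1 of them, for D2 against D1, is not reported here), and for Cnr1, Dagla and Mgll the 5 genes most like each. The genes and lists were chosen with earlier results of these data known.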

Additional observations from a re-analysis of the deposited data

Results flagged for a closer look

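Within groups of 4 to 10 animals, 3 of 19 sets of values that were checked had a single animal far from the others, where chance gives about 1 in 20. Larger groups, among them the groups with a mate over all nuclei, were not checked. Among females with a peer, Cnr1 over all nuclei was 196 CPM in female peer 4, and the next animal had 310 CPM. In that group Dagla over all nuclei was 175 CPM in female peer 5, and the next had 146 CPM. Among males with a mate, Cnr1 in astrocyte-like nuclei was 807 CPM in male mate 7, and the next had 623 CPM.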

How the results depend on the processing

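No paired analysis was run between groups, since replicate numbers in the 4 groups only name animals and the labels do not name partners. The comparisons by pairing and sex therefore have no replicate block. Blocks of 10 consecutive label numbers were run as a covariate, and smaller blocks were not run. The D2 against D1 comparison has the animal as a block. With no replicate block it called 2 of the 6 genes in place of 5, with Daglb at -0.09, Mgll at -0.09 and Faah at 0.15 no longer passing, and 1277 genes in place of 3055. In the other 6 alternatives, DESeq2 among them, it called 5. The counts of member genes called between groups were 0 under every alternative run. The share of astrocyte-like nuclei with a Cnr1 UMI was 26.5% at 500 UMIs per nucleus and 38.6% unthinned, a difference that thinning makes by construction.

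Differences by pairing that changed sign were all near 0 and not called. Over all nuclei, Mgll went from 0.02 to -0.00768 with blocks of label numbers and to -0.00647 without glutamate neuron-like nuclei, and Abhd6 from -0.07 to 0.0223 with the blocks. Faah went from -0.00 to 0.0289 without male peer 1, 0.0356 without glutamate neuron-like nuclei, 8.42e-05 without the Vip-led cluster and 0.00785 without male mate 6. The last 2 of these alternatives were chosen after seeing the data. Cnr1 in the Vip-led cluster went from -0.10 to 0.00209 with at least 50 nuclei per animal. The Cnr1 interaction in endothelial-like nuclei, 1.45, was -1.22 with doublets kept, and the cause was not tested. The number of neighbouring class pairs that passed ran from 33 to 42 of those tested. Napepld, Cnr1 in microglia-like nuclei and classes with few nuclei are limited by their counts.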

Other observations

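Clusters not yet described also differed for these genes, and these values carry no test because the clusters were picked after their levels were seen. Among eccentric medium spiny neuron-like nuclei, the cluster led by Foxp2 and Otof had 95 CPM ± 25.4 of Mgll, 147 CPM ± 35.3 of Faah and 104 CPM ± 18.6 of Daglb (SD, n = 39), and the cluster led by Col14a1 and Shisa8 had 48.0 CPM ± 23.7, 73.7 CPM ± 31.9 and 54.5 CPM ± 25.0. The Foxp2-led cluster was higher in 37 of 39 animals for Mgll and in 38 of 39 for Faah and for Daglb. Cnr1 in the Col14a1-led cluster was 38.0 CPM over the pooled nuclei, while its mean over animals, 65.5 CPM ± 195, carried 1 animal at 1189.7 CPM. Among D1 nuclei, the cluster led by Dlk1 and Ush1c had 157 CPM ± 49.6 of Mgll (n = 33). Faah in the glutamate neuron-like cluster led by Nr4a2 and Slc26a4 was 344 CPM ± 80.1, against 127 CPM ± 39.6 in the cluster led by Stmn1 and Cck (n = 39 each). In an unnamed cluster of 2560 nuclei led by ciliary genes such as Cfap43 and also by Gfap, Cnr1 was 230 CPM ± 135 and Mgll 289 CPM ± 112 (n = 34).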
